A study of Rattus norvegicus with 72 samples.

Results

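The 12 arrays described here cover the first 3 hours after a crush of the sciatic nerve, in a rat series of 72 arrays. They were taken by title: 3 proximal and 3 sham arrays at 1 h, and 3 proximal and 3 sham arrays at 3 h, compared within the hour. Each array held RNA of the L4 and L5 dorsal root ganglia, where the sensory neurons of that nerve have their cell bodies. The animals were Wistar rats of 8 to 12 weeks. Proximal is the labels' name for the lesion site, and the same labels hold a distal lesion group and later hours that are used here only where named. The labels do not say what surgery the sham animals had, whether ganglia were pooled, or whether arrays of a group came from separate animals. The p-values below therefore measure the spread between these arrays, which may be technical.

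The series concerns how signals from the injured axon reach transcription in the cell body. As background, an injured sensory neuron first receives an electrical and calcium signal and later receives proteins carried back by dynein motors and importins. Immediate-early genes such as Fos and Egr1 answer fast to many stimuli, and regeneration-associated genes such as Atf3, Sox11 and Gal are known for a slower and lasting rise after axotomy. Interferon-stimulated genes are a separate antiviral program, switched on when interferon receptors activate STAT and IRF factors, which bind a short DNA element in the promoters of these genes.

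The promoters below are shown because 9 of the 11 genes that fell at 1 h were interferon-stimulated genes. The element searched was TTTCNNTTTC, the core to which such factors bind, on either strand (GAAANNGAAA on the other), in the 250 bases before the gene's start. The search was chosen after the values of these genes had been seen. Of the 11 genes 7 had a promoter in the RefSeq table, and 5 of these held the element (Cxcl10, Ifgga2l1, Ifit3, Irf7 and Rsad2), while Mx1 and Spock3 did not hold these letters in this window. The element occurred in 276 of the 10155 tested genes with a promoter (2.72%) and in 1140 of all 33469 promoters (3.41%). None of the 4 genes that rose at 1 h, all with a promoter in the table, held it. Matches are a description of letters and show neither binding nor a cause. The capitals mark the element, and each line reads from 5′ to 3′ on the gene's own strand, from RefSeq on the GRCr8 build.
Rsad2, chr6:48788218-48788307, minus strand: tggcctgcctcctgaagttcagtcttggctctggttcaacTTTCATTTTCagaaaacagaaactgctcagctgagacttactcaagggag
Irf7, chr1:205800043-205800132, minus strand: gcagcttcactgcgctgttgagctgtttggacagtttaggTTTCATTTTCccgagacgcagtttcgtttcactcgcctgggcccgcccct
Ifit3, chr1:241527242-241527325, plus strand: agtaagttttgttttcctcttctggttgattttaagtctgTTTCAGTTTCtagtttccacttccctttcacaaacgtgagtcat
Cxcl10, chr14:15988816-15988872, plus strand: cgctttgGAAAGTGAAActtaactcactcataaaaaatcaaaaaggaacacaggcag
The element began 147 bases before the start of Rsad2, 69 before that of Irf7, 44 before that of Ifit3 and 243 before that of Cxcl10.

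Levels are log2 RMA intensities of 1 probe set for each gene, so a difference of 1 is a doubling. A gene counts as called where limma, fitted over 12276 genes, gave a Benjamini-Hochberg adjusted p under 0.05, with arrays paired by title letter at 1 h. The ganglion label held for the neuron markers: of 18, 17 were measured above the filter, Nefh (neurofilament heavy chain) lay between 14.14 and 14.32 in all 12 arrays, and 0 of the 17 were called at either hour. The mean of the 17 was less even, at 11.51 in the sham and 11.59 in the proximal array of letter a at 1 h. It was 11.90 to 11.92 in the other 1 h arrays and 11.63 to 11.78 at 3 h. Both letter a arrays at 1 h stood apart on the first principal component (-48.39 and -40.18, against -16.74 to -6.92 for the other 1 h arrays). The difference between 3′ and 5′ probes of the hexokinase control, a sign of RNA length, was 2.78 and 2.81 there and 1.20 to 2.45 in the others. At 3 h this difference was 2.29 to 2.33 in the proximal arrays and 1.79 to 2.0 in the sham arrays, with no overlap. The same difference for the GAPDH control also separated these groups (0.29 to 0.39 against 0.17 to 0.19), while that for actin did not (0.89 to 1.32 against 0.69 to 1.27). Neither GAPDH nor actin set both letter a arrays of 1 h apart. Their part in the results at 3 h was not tested. The median SD of a gene was 0.20 in sham and 0.19 in proximal arrays at 1 h, and 0.11 and 0.081 without letter a.

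Few genes differed between proximal and sham ganglia in these hours. At 1 h 4 genes rose and 11 fell (15 of 12276, 0.122%), and at 3 h 10 rose and 9 fell (19 genes, 0.155%). At an unadjusted p under 0.05 there were 1343 and 1286 genes. A limma fit over all 72 arrays, without the pairing by letter, called 0 genes at 1 h and 0 at 3 h. It gave 247 and 307 genes at an unadjusted p under 0.05, and its median SE at 1 h was 0.18 in place of 0.11. That fit differs from the main one in both the arrays and the pairing. No gene was called at both hours, and across genes the differences at 1 h and at 3 h had a Pearson correlation of 0.14, a description over genes that are not independent replicates.

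**Figure D1:**
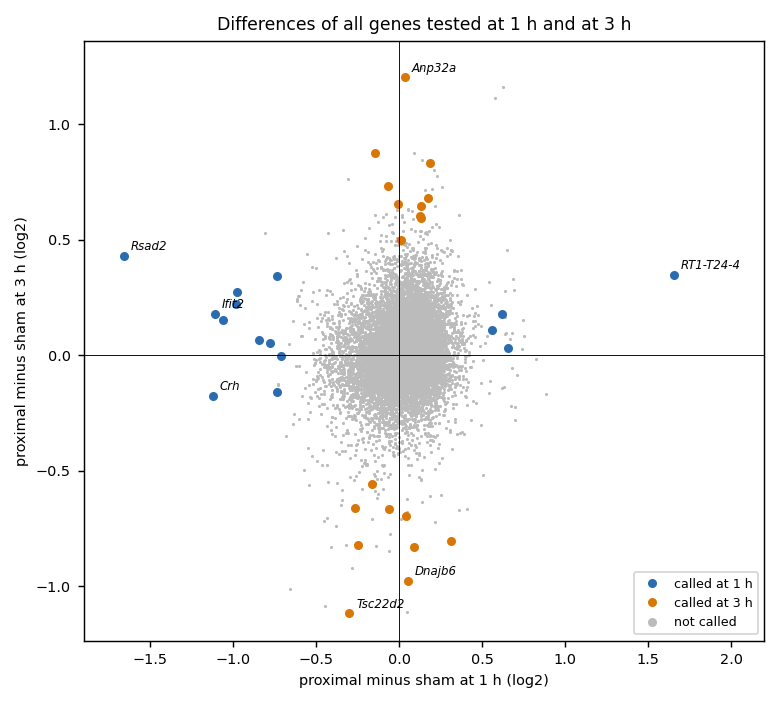
Each point is 1 of the 12276 tested genes, with its log2 difference between proximal and sham arrays at 1 h (horizontal axis) and at 3 h (vertical axis), with genes called at 1 h in blue and genes called at 3 h in orange. Genes called at 1 h lie along the horizontal axis and genes called at 3 h along the vertical axis, with Rsad2 at -1.66 and RT1-T24-4 at 1.65 farthest out at 1 h.

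The sham arrays of 3 h differed from those of 1 h in 5815 genes, 1276 higher and 4539 lower (47.4% of 12276), and in the fit over all 72 arrays in 2875 genes, 348 higher and 2527 lower. The count of 5815 is from the fit with letter terms at 1 h, which take the spread between letters out of the error. Sham arrays are not paired between hours, so that SE is too small for this comparison. The fit over all 72 arrays had no letter terms. On probe sets too dim to be measured, all arrays of 1 h fell in 1 cluster and all arrays of 3 h in another. Hour and this technical grouping cannot be told apart, so these counts only describe the arrays. Elsewhere levels are tested within an hour, differences are tested between hours, and levels at other hours are given as values with no test.

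At 1 h the genes that fell were led by interferon-stimulated genes: the proximal ganglia held less mRNA of Rsad2, Ifit2, Ifit3, Cxcl10, Isg15, Irf7, Mx1, Usp18 and Ifgga2l1 than the sham ganglia, by 1.64-fold to 3.16-fold. Fewer cells of a type and less RNA per cell cannot be told apart in such tissue samples. Rsad2 encodes viperin, an enzyme that blocks viral replication. Its levels were 7.65, 8.05 and 8.54 in the proximal arrays of letters a, b and c and 9.05, 10.04 and 10.13 in the sham arrays. Every proximal array lay below every sham array, and Rsad2 fell by 1.66 on the log2 scale (SE 0.16, limma adjusted p = 0.000161). At 3 h its levels were 7.75, 8.42 and 8.36 in proximal and 7.70, 7.80 and 7.73 in sham arrays, so the sham arrays at 1 h had the highest values of the 4 groups. In sham arrays after 3 h Rsad2 ranged from 7.29 to 9.89 (n = 15, median 8.33), and the 3 proximal arrays at 28 h read 7.73, 11.79 and 11.88. Single arrays of both groups at later hours thus reached or passed the level of the sham arrays at 1 h.

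Ifit2, which encodes a protein that binds viral RNA, read 7.22, 7.72 and 7.80 in proximal arrays at 1 h and 8.07, 9.06 and 8.94 in sham arrays. The groups did not overlap, and the difference was -1.11 (SE 0.11, limma adjusted p = 0.000285). A second probe set of Ifit2 gave -1.09 (limma adjusted p = 0.000668). Its relative Ifit3 read 5.50, 5.67 and 5.62 in proximal and 5.82, 7.38 and 6.78 in sham arrays, and fell by 1.06 (SE 0.18, limma adjusted p = 0.0329). The letter a pair differed by only -0.33 there, against -1.71 and -1.15 for letters b and c.

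Cxcl10, a chemokine that draws T cells, read 6.99, 7.21 and 6.89 in proximal and 7.53, 8.17 and 8.31 in sham arrays at 1 h, a difference of -0.98 (SE 0.14, limma adjusted p = 0.0134). Isg15, a ubiquitin-like protein joined to other proteins, read 8.52, 8.34 and 8.85 against 8.98, 9.97 and 9.71. Its difference was -0.98 (SE 0.17, limma adjusted p = 0.0412). For both genes each proximal array lay below each sham array.

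Usp18, the protease that removes Isg15 from proteins, read 7.89, 8.20 and 8.04 in proximal and 8.33, 8.99 and 8.95 in sham arrays (-0.71, SE 0.11, limma adjusted p = 0.0195). Irf7, a transcription factor that amplifies interferon output, read 8.69, 8.18 and 8.36 against 9.03, 9.43 and 9.31 (-0.84, SE 0.14, limma adjusted p = 0.0329). The antiviral GTPase Mx1 read 7.82, 8.14 and 8.09 against 8.41, 9.06 and 8.92 (-0.78, SE 0.12, limma adjusted p = 0.0248). All 3 genes were separated between the groups at 1 h. Ifgga2l1, by name a relative of the interferon-inducible GTPases, read 5.89, 6.72 and 6.59 against 6.49, 7.47 and 7.46, with overlap between the groups and a fall in each pair (-0.74, SE 0.11, limma adjusted p = 0.0168).

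The wider set of 43 interferon-stimulated genes was drawn up after these values had been seen, so its counts describe the arrays and support nothing. Of its 37 tested members 9 fell at 1 h and 0 rose. Without regard to the test, 26 of 37 (70.3%) were lower in all 3 pairs, against 968 of all 12276 genes (7.89%), and 1 was higher in all pairs, against 2755 genes (22.4%). The median difference was -0.29, beside 0.0386 over all genes. The mean level of the 37 genes was 8.04, 8.38 and 8.29 in sham arrays and 7.79, 7.84 and 7.84 in proximal arrays. The member that was higher in all pairs was Psmb8, a subunit of the immunoproteasome. It read 8.23, 7.78 and 7.67 in proximal and 7.74, 7.58 and 7.57 in sham arrays, with no call (0.26, limma adjusted p = 0.418). At 3 h 0 members were called, with a median of 0.14 beside 0.0129 over all genes. There 11 of 37 lay above sham in all proximal arrays (29.7%, against 11.0% of all genes) and 2 below (5.41%, against 8.12%). At an unadjusted p under 0.05 7 members were higher and 1 lower at 3 h, beside 826 and 460 of all genes.

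**Figure D2:**
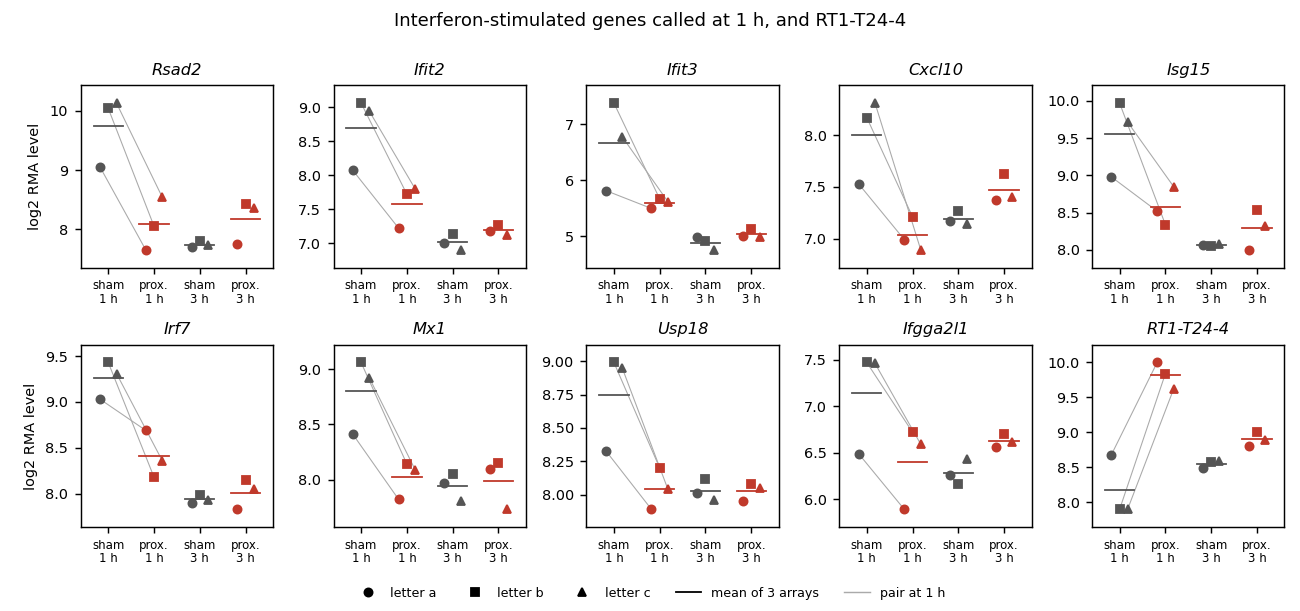
Log2 RMA levels (vertical axis) of the 9 interferon-stimulated genes called at 1 h and of RT1-T24-4 in the 12 arrays, by group and hour, with 1 symbol for each title letter, a bar at the mean of 3 arrays and grey lines joining the pairs at 1 h. In the first 9 panels the sham arrays at 1 h lie highest as a group, as for Rsad2 with 9.05 to 10.13 against 7.65 to 8.54 in proximal arrays.

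These calls rest on the pairing by letter and on the arrays pooled. Without the letter terms 1 gene was called at 1 h, RT1-T24-4, and 463 had an unadjusted p under 0.05. The count was 4 without the proximal or the sham array of letter b at 1 h, 8 without sham letter c of 3 h and 9 without sham letter b or proximal letter c of 3 h. Without either letter c array of 1 h it was 10, and only 4 of these were among the 15 main calls. Rsad2, Ifit2 and RT1-T24-4 were called with each of the 12 arrays left out in turn. Cxcl10, Mx1, Usp18 and Ifgga2l1 were called with 8 of the 12 left out in turn, Isg15 and Irf7 with 4 and Ifit3 with 2.

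RT1-T24-4, a class I histocompatibility gene, had the largest rise at 1 h. It lay between 9.62 and 10 in proximal arrays and read 8.68, 7.90 and 7.91 in sham arrays, with no overlap, and rose by 1.65 (SE 0.11, limma adjusted p = 4.47e-06). At 3 h it read 8.81, 9.0 and 8.89 against 8.49, 8.58 and 8.59, a difference of 0.35 that was not called (limma adjusted p = 0.253). The gene belongs to a large family of near-identical copies that its probes may not separate. Over later hours its level ranged from 5.37 to 9.63 in sham and from 5.27 to 10.21 in proximal arrays, wider than the difference at 1 h.

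The other genes called at 1 h belong to no list fixed for this work. Crh, the stress peptide corticotropin-releasing hormone, read 4.72, 7.54 and 6.56 in proximal and 6.21, 8.11 and 7.87 in sham arrays. The groups overlapped, since letter a was low in both, yet each pair fell (-1.12, SE 0.17, limma adjusted p = 0.0195). Spock3, an extracellular proteoglycan, read 6.34, 6.59 and 6.97 against 7.21, 7.41 and 7.47, with no overlap (-0.74, SE 0.12, limma adjusted p = 0.0281).

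Casr, the calcium-sensing receptor, read 7.89, 9.04 and 8.89 in proximal and 7.16, 8.44 and 8.37 in sham arrays and rose in each pair (0.62, SE 0.10, limma adjusted p = 0.0329). Elavl3, a neuronal RNA-binding protein, read 10.05, 10.09 and 9.98 against 9.04, 9.53 and 9.60 (0.65, SE 0.12, limma adjusted p = 0.0477). Its second probe set gave 0.53 and was not called (limma adjusted p = 0.387). Cyp4f6, a cytochrome P450 of fatty acid hydroxylation, read 8.75, 8.39 and 8.43 against 8.29, 7.78 and 7.83 (0.56, SE 0.10, limma adjusted p = 0.0336). Casr was called with 1 of the 12 arrays left out in turn, and Elavl3 and Cyp4f6 with 0.

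Immediate-early transcription factors were not called at 1 h, though several read higher in every proximal array of a pair. Of 31 listed genes 29 were tested: 11 were higher in all 3 pairs (37.9%, against 22.4% of all genes) and 4 were lower in all pairs (13.8%, against 7.89%). The median difference of the list was 0.051, beside 0.0386 over all genes. At an unadjusted p under 0.05 7 members were higher and 3 lower, beside 734 and 609 of all 12276 genes. In limma 0 were called, as in the fit over all 72 arrays. With 0.122% of all genes called at 1 h, a count of 0 of 29 does not set the list apart.

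Egr1, a zinc-finger factor induced by growth factors and activity, read 8.30, 9.33 and 9.22 in proximal and 8.08, 8.55 and 8.53 in sham arrays at 1 h. The pairs differed by 0.23, 0.78 and 0.69, with a fitted difference of 0.57 (95% interval 0.30 to 0.84, limma adjusted p = 0.139). Leaving out the letter a pair, a setting chosen after the data were seen, removes the smallest of these pair differences. The difference was then 0.74 (limma adjusted p = 0.0376), which is no separate support. Fos, a partner in the AP-1 complex, read 7.26, 7.32 and 7.42 against 6.64, 7.01 and 6.68, with no overlap between the groups. Its difference was 0.55 (95% interval 0.23 to 0.87, limma adjusted p = 0.274), a 1.47-fold level.

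Atf3, the stress factor that later marks injured sensory neurons, read 8.11, 7.96 and 7.79 in proximal and 7.85, 7.43 and 7.17 in sham arrays at 1 h. The groups overlapped by 1 array, all pairs were higher, and the difference was 0.47 (95% interval 0.21 to 0.74, limma adjusted p = 0.228). Junb read 9.01, 8.48 and 8.56 against 8.32, 8.44 and 8.13, a difference of 0.39 (limma adjusted p = 0.367), with pair b at 0.045. The small Maf factor Maff differed by 0.30 (limma adjusted p = 0.367) and the nuclear receptor Nr4a1 by 0.13 (limma adjusted p = 0.594).

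Not all members pointed up. Jun, the main AP-1 partner of Fos, read 10.50, 10.36 and 10.38 in proximal and 10.86, 10.57 and 10.50 in sham arrays, lower in each pair (-0.23, limma adjusted p = 0.39). Klf10 was also lower in each pair (-0.33, limma adjusted p = 0.32). Klf4 (-0.029) and Myc (-0.049) had intervals around 0, as did the MAP kinase phosphatase Dusp1 (0.043), which is not on this list.

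At 3 h 0 of the 29 were called, where 0.155% of all genes were, with a median of 0.044. Fos differed by 0.22 (95% interval -0.11 to 0.54, limma adjusted p = 0.673), Egr1 by 0.10 (limma adjusted p = 0.85) and Atf3 by 0.21 (limma adjusted p = 0.581). Maff kept 5.81, 5.84 and 5.95 in proximal against 5.55, 5.43 and 5.60 in sham arrays, with no overlap and no call (0.34, limma adjusted p = 0.228). The change in the difference between 1 h and 3 h was -0.47 for Egr1 and -0.34 for Fos, and neither passed the test (limma adjusted p = 0.512 and 0.689).

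**Figure D3:**
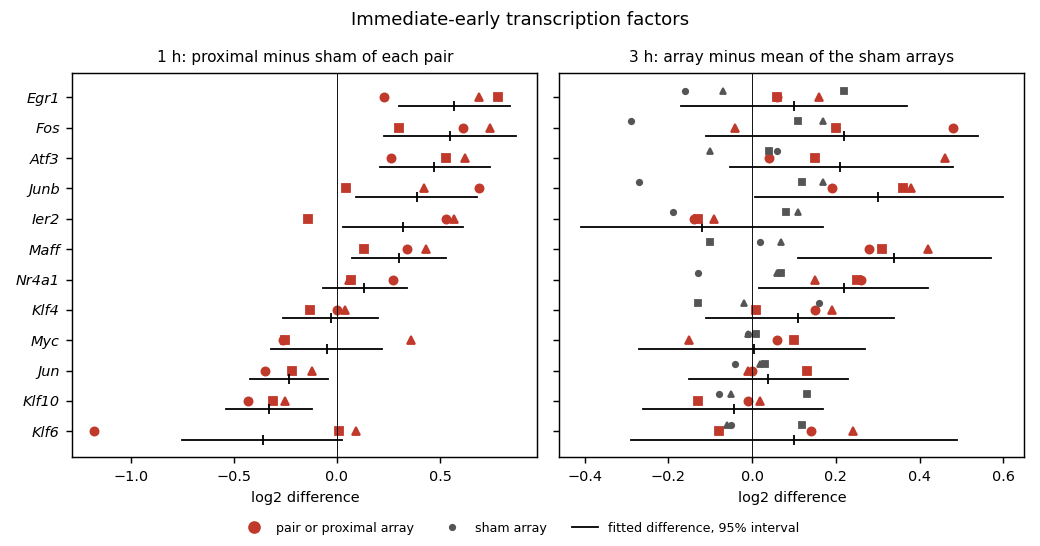
Log2 differences (horizontal axis) of 12 immediate-early transcription factors: at the left each proximal array minus its paired sham array at 1 h, at the right each array minus the mean of the sham arrays at 3 h, with the fitted difference and its 95% interval as a black line. Egr1 (0.57), Fos (0.55) and Atf3 (0.47) lie right of 0 in all 3 pairs at 1 h, and the intervals of Egr1, Fos and Atf3 reach below 0 at 3 h.

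At 3 h 10 genes rose, among them Anp32a, Aif1, Camta2, Mta1, Myh9, Pfn1, Ptgfrn, Dhx35 and Nherf1. The largest rise was that of Anp32a, a nuclear protein that binds histones and inhibits protein phosphatase 2A. Anp32a read 9.37, 9.45 and 9.15 in proximal and 7.87, 8.14 and 8.36 in sham arrays. The groups did not overlap, and the rise was 1.20 or 2.30-fold (SE 0.12, limma adjusted p = 0.00104). At 1 h the 6 arrays lay between 9.09 and 9.28, so the sham arrays at 3 h had the lowest values of the 4 groups. In the 15 sham arrays after 3 h the median of Anp32a was 9.61 (8.01 to 10.03). The sham arrays at 8 h were also low, between 8.01 and 8.20, and the lowest proximal array at 8 h read 8.48. A low sham level was thus not limited to 3 h. From 12 h on the sham and proximal arrays overlapped at each hour.

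Myh9, Pfn1 and Nherf1 encode proteins tied to actin, a grouping made after the values were seen. Myh9, non-muscle myosin heavy chain, read 10.51, 10.46 and 10.56 in proximal and 9.67, 9.71 and 10.17 in sham arrays (0.66, SE 0.12, limma adjusted p = 0.0499). Profilin Pfn1, which feeds actin monomers to growing filaments, read 11.52, 11.37 and 11.34 against 10.57, 10.61 and 11.12 (0.65, SE 0.12, limma adjusted p = 0.0499). Nherf1, a scaffold that ties membrane proteins to ezrin, rose by 0.50 (limma adjusted p = 0.0499), with 0.38 on a second probe set that was not called. For Myh9, Pfn1 and Nherf1 the lowest proximal array exceeded the highest sham array.

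Camta2, a calmodulin-binding transcription activator, read 8.94, 9.16 and 9.37 in proximal and 8.26, 8.49 and 8.51 in sham arrays (0.73, SE 0.12, limma adjusted p = 0.0301). Mta1, a subunit of the NuRD chromatin complex, read 7.44, 7.25 and 7.34 against 6.58, 6.61 and 6.80 (0.68, SE 0.10, limma adjusted p = 0.0208). Its dimmer second probe set, under the filter, gave -0.13. Both genes were separated between the groups at 3 h and near equal at 1 h (-0.067 and 0.17).

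Aif1, Ptgfrn and Dhx35 also rose. Ptgfrn, a membrane protein that inhibits prostaglandin F receptors, read 8.02, 8.02 and 8.05 in proximal and 7.41, 7.44 and 7.43 in sham arrays (0.60, SE 0.11, limma adjusted p = 0.0499), and the RNA helicase Dhx35 rose by 0.59 (limma adjusted p = 0.0369). Aif1, a calcium-binding protein that marks macrophages, read 7.58, 7.34 and 7.18 against 6.46, 6.26 and 6.88 (0.83, SE 0.15, limma adjusted p = 0.0499). Its other probe set gave -0.026 (limma adjusted p = 0.971), so the 2 probe sets of Aif1 disagree.

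The genes that fell at 3 h were led by Tsc22d2, a leucine-zipper protein, and Dnajb6, a co-chaperone of heat shock protein 70. Dnajb6 read 9.93, 9.99 and 9.81 in proximal and 10.91, 10.90 and 10.85 in sham arrays, a fall of 0.98 with no overlap (SE 0.11, limma adjusted p = 0.0012). Tsc22d2 read 6.72, 7.25 and 6.53 against 7.94, 7.87 and 8.04 (-1.12, SE 0.16, limma adjusted p = 0.0101). Id2, which inhibits basic helix-loop-helix factors, read 9.38, 9.25 and 9.15 against 10.04, 10.16 and 10.04 (-0.82, SE 0.11, limma adjusted p = 0.00826). The second probe set of Id2 pointed the other way (0.49, limma adjusted p = 0.197).

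The other falls were those of Stk32c, Slco5a1, Rab5c, Kpna1, Ube3al1 and Nek1. The kinase Stk32c read 7.87, 7.70 and 8.04 in proximal and 8.65, 8.62 and 8.83 in sham arrays (-0.83, SE 0.11, limma adjusted p = 0.00826). Kpna1, an importin alpha that carries cargo with a nuclear localization signal, read 10.66, 10.53 and 10.31 against 11.09, 11.19 and 11.23 (-0.67, SE 0.12, limma adjusted p = 0.0499). Its other probe sets gave -0.15 and -0.13, neither called. The early-endosome GTPase Rab5c fell by 0.70 (limma adjusted p = 0.0499), the transporter Slco5a1 by 0.81 (limma adjusted p = 0.0215, with -0.26 and no call on a second probe set), Ube3al1 by 0.66 (limma adjusted p = 0.0369) and the cilium kinase Nek1 by 0.56 (limma adjusted p = 0.0499). In all 9 falls the groups did not overlap.

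These 9 genes also differed between arrays of the same group at 1 h. At 1 h all 9 differed by more than 1 log2 between the letter a arrays and those of letters b and c, 7 lower in letter a, as Dnajb6 with 7.49 and 7.41 against 10.14 to 10.48 for the others, and 2 higher, Stk32c and Rab5c. Over all genes 309 of 12276 (2.52%) differed by that much, 278 of them lower in letter a, and of the 10 genes that rose at 3 h 0 did. Among the 28 falls of the fit on 3 h arrays alone 16 did (57.1%), and among its 39 rises 1 did (2.56%). Across genes the letter a contrast at 1 h and the lesion difference at 3 h had a Pearson correlation of 0.27, given as a description of arrays that share no sample.

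**Figure D4:**
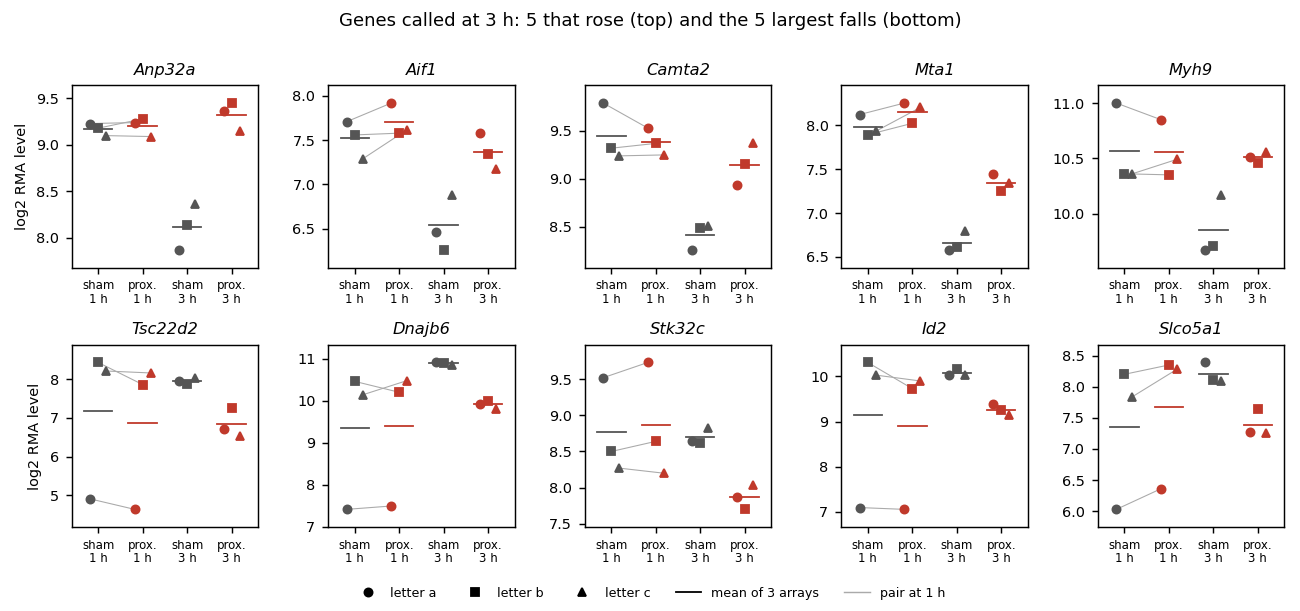
Log2 RMA levels (vertical axis) of 5 genes that rose at 3 h (top row) and the 5 with the largest falls (bottom row) in the 12 arrays, by group and hour, with 1 symbol for each title letter, a bar at the mean of 3 arrays and grey lines joining the pairs at 1 h. The means of the sham arrays at 3 h lie below those of the other groups in the top row, as Anp32a with 7.87 to 8.36, and the letter a arrays at 1 h lie far from letters b and c in the bottom row.

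Fitted on the 6 arrays of 3 h alone, 39 genes rose and 28 fell (67 of 12276, 0.546%), and all 19 genes called in the fit of 12 arrays were among them. Leaving out single arrays gave 2 to 76 genes at 3 h: 2 without sham letter a of 3 h, 3 without proximal letter c, 4 without proximal letter a or sham letter b, 12 without either 1 h array of letter c, and 76 without either 1 h array of letter a, which share in the estimate of the spread. Anp32a and Dnajb6 were called with each of the 12 arrays left out. Stk32c was called with 10 of the 12 left out in turn and Id2 with 9. Camta2, Mta1, Slco5a1 and Tsc22d2 kept the call with 8 and Ube3al1 with 7. For Dhx35 and Rab5c the number was 6, for Kpna1 and Nherf1 4, for Aif1, Myh9 and Pfn1 3 and for Ptgfrn and Nek1 2. Without the letter terms of 1 h the count was 1, Anp32a, and Dnajb6 was not called.

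Among inflammatory genes 1 was called higher at 3 h, Aif1, whose other probe set gave -0.026. Of 18 macrophage markers 7 lay above sham in all proximal arrays (38.9%, against 1353 of 12276 genes or 11.0%) and 2 below (11.1%, against 997 genes or 8.12%), with a median of 0.19. At an unadjusted p under 0.05 6 markers were higher and 1 lower, beside 826 and 460 of all genes. Among the markers above sham, the complement subunit C1qc read 9.25, 9.19 and 9.19 in proximal and 8.82, 8.47 and 8.91 in sham arrays (0.48, limma adjusted p = 0.125). The Fc receptor chain Fcer1g, also above, read 9.53, 9.44 and 9.48 against 9.13, 9.12 and 9.15 (0.35, limma adjusted p = 0.139). The scavenger receptor Cd163 differed by -0.012. The mean of the 18 markers lay between 8.04 and 8.14 in proximal and 7.85 and 7.95 in sham arrays at 3 h. At 1 h the mean was higher in the proximal array of each pair, at 8.14, 7.96 and 7.87 against 8.08, 7.91 and 7.84. There 9 of the 18 markers were higher in all pairs, where 22.4% of all genes were, and 1 was lower in all pairs (5.56%, against 7.89%). Their median was 0.09, with 0 calls.

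Of the 23 tested chemokine, cytokine and NF-kappaB target genes 10 lay above sham in all proximal arrays at 3 h (43.5%, against 11.0%), with a median of 0.15 and 0 calls. Ccl7, a monocyte chemokine, read 6.52, 6.46 and 6.37 in proximal and 5.96, 5.85 and 6.31 in sham arrays (0.41, limma adjusted p = 0.228). Icam1, an adhesion molecule induced by NF-kappaB, differed by 0.34 (limma adjusted p = 0.259).

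Skeletal muscle genes, which mark tissue outside the ganglion, varied between the proximal arrays of 3 h. The actin Acta1 read 10.88, 7.50 and 9.94 there and 8.82, 8.83 and 9.22 in sham arrays, and the myosin light chain Myl1 read 10.46, 6.42 and 9.56 against 8.38, 8.37 and 8.71. Of 14 tested muscle markers 0 were called at either hour, and their part in other results was not tested.

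Among genes of retrograde transport and neuronal function 1 fell. Of 23 tested importins and Ran-cycle genes 1 fell at 3 h (Kpna1), with 0 called at 1 h and list medians of -0.057 and -0.064. Dynein, dynactin and kinesin genes had 0 calls of 23 (medians -0.065 and -0.024), and 25 voltage-gated channels and 25 nociceptor genes had 0 calls at either hour. With 0.122% of all genes called at 1 h and 0.155% at 3 h, counts of 0 in lists of this size do not set their members apart. At 1 h 0 importin and Ran-cycle genes were higher in all pairs (against 22.4% of all genes) and 2 were lower (8.70%, against 7.89%). At an unadjusted p under 0.05 0 were higher and 6 lower, beside 734 and 609 of all 12276 genes. For the dynein, dynactin and kinesin genes these counts were 0 and 3. The transcription factor Stat3, which is carried back to the nucleus after injury, read 10.79, 10.76 and 11.12 in proximal and 10.54, 10.48 and 10.56 in sham arrays at 3 h, with no overlap and no call (0.36, limma adjusted p = 0.161).

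Over both hours together 2 genes rose and 2 fell (4 of 12276, 0.0326%): RT1-T24-4 by 1.00 (limma adjusted p = 3.83e-05), Anp32a by 0.62 (limma adjusted p = 0.0267), Id2 by -0.53 (limma adjusted p = 0.0294) and Tsc22d2 by -0.71 (limma adjusted p = 0.0425). A limma fit over all 72 arrays without the letter terms called 0, with 353 genes at an unadjusted p under 0.05, against 1714 here. Camk2a, a calcium-activated kinase of neurons, was not called (0.89, limma adjusted p = 0.0922). The count was 39 without either letter a array of 1 h, 14 without either letter c array of 1 h, 22 without proximal letter b of 3 h, and 1 without either letter b array of 1 h, proximal letter a of 3 h, or sham letter a or b of 3 h. At 3 h Camk2a read 8.03, 8.51 and 7.45 in proximal and 7.09, 6.66 and 6.76 in sham arrays, and at 1 h 8.37, 8.68 and 7.83 against 8.30, 7.24 and 7.46.

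The difference itself changed between 1 h and 3 h for 8 genes (0.0652% of 12276). The interferon-stimulated genes Rsad2 (2.09, limma adjusted p = 0.00146), Ifit2 (1.29, limma adjusted p = 0.00343), Cxcl10 (1.25, limma adjusted p = 0.0237) and Ifgga2l1 (1.08, limma adjusted p = 0.0137) were lower in proximal arrays at 1 h, and their differences at 3 h were of the other sign and not called. Anp32a changed by 1.17 (limma adjusted p = 0.0167), and RT1-T24-4 by -1.30, Slco5a1 by -1.12 and Dnajb6 by -1.03 (limma adjusted p = 0.00343, 0.0237 and 0.0167). Without the letter terms 0 genes were called, and 356 had an unadjusted p under 0.05. The count was 16 without either letter a array of 1 h, 13 without sham letter c of 3 h, 4 without either letter b array of 1 h or proximal letter a or c of 3 h, and 3 without either letter c array of 1 h or sham letter a or b of 3 h.

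Of 37 tested injury-induced and regeneration-associated genes 0 were called at 1 h or 3 h, where 0.122% and 0.155% of all genes were called, so the count by itself does not set these genes apart. Their differences had medians of 0.018 and 0.020, beside 0.0386 and 0.0129 over all genes, while 9 were higher in all pairs at 1 h (24.3%, against 22.4%) and 6 lay above sham at 3 h (16.2%, against 11.0%). Sox11, a factor that promotes axon growth, read 5.55, 5.34 and 5.62 in proximal and 5.10, 5.56 and 5.38 in sham arrays at 1 h, and 5.09, 5.02 and 4.98 against 5.09, 5.03 and 4.89 at 3 h. The stress gene Gadd45a differed by 0.068 at 1 h and -0.013 at 3 h. The cytokine Il6 lay at 4.15 to 4.66 in all 12 arrays, under the 5.46 filter level.

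At 18, 24 and 28 h the difference between proximal and sham arrays had changed from that of the first hours in 582 genes, 255 upward and 327 downward (4.74% of 12276, limma over 30 arrays). The early arrays serve as the base of this comparison and of the next one. Of the 37 injury genes 27 were called upward and 1 downward, where 4.74% of all genes were called in either direction. The 27 include genes that passed the filter only through other arrays where they are high, such as Il6 and Tslp. The count is therefore a description. Atf3 changed by 3.28 (SE 0.42, limma adjusted p = 2.4e-05) and the secreted protein Reg3b by 3.22. Il6 had a fitted change of 3.52, Tnfaip6 of 2.91 and Tslp of 2.89. All 12 early arrays of Il6 and Tslp and most of those of Tnfaip6 lay under the filter level, so these 3 values are differences of RMA values and not sizes of change. Il6 lay between 7.31 and 8.83 in proximal and 4.07 and 5.11 in sham arrays at 18 h. Atf3 lay between 11.88 and 12.56 in proximal and 7.85 and 9.46 in sham arrays at 18 h.

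Gadd45a changed by 2.33 and the neuropeptide Gal by 1.02. Sox11 had a fitted change of 2.26, also from early values mostly under the filter level, so no test of its rise is given. It lay between 7.52 and 8.11 in proximal and 5.43 and 5.63 in sham arrays at 18 h. Of the 29 immediate-early factors 10 were called upward (255 of all 12276 genes were), among them Fos (1.56, limma adjusted p = 0.008), Jun (1.15, limma adjusted p = 2.98e-05), Klf6 (1.02) and Myc (1.16). Downward were Camk2a (-1.46), the cell-division gene Racgap1 (-1.35), the adrenergic receptor Adra2c (-1.20), the activin subunit Inhbb (-1.05) and the serotonin receptor Htr1d (-0.99). Nociceptor genes had 9 calls downward and 3 upward of 25, beside 327 downward and 255 upward of all 12276 genes. The other probe sets of Camk2a gave -0.062 and -0.01, neither called, and that of Racgap1 gave -0.99 and was called. The count of 582 became 333 without either letter b array of 1 h, 387 without either letter c array of 1 h, 370 without sham letter b of 3 h, 1063 without proximal letter c of 18 h and 1047 without sham letter c of 18 h.

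At 8 h the difference had changed from that of the first hours in 74 genes, 36 upward and 38 downward (0.603% of 12276, limma over 18 arrays). Ccl2, the main monocyte chemokine, differed by 0.14 at 1 h and -0.091 at 3 h and changed by 1.13 at 8 h (SE 0.19, limma adjusted p = 0.0056). At 8 h it lay between 9.63 and 10.03 in proximal and 8.37 and 9.11 in sham arrays. Fzd2, a Wnt receptor, changed by 1.03, Sbno2 by 1.00, angiotensinogen Agt by 0.98 and the scavenger receptor Cd163 by 0.98.

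Downward at 8 h were the muscle genes Myl11 (-4.22), Myl1 (-3.90) and Tnnc2 (-3.51). All 3 varied widely between the proximal arrays of 3 h, as Myl11 did with 11.73, 7.15 and 10.67, and the part of muscle tissue in these values was not tested. The satellite glia gene Fabp7 changed by -2.01 (limma adjusted p = 1.96e-05) and Aif1 by -1.54 (limma adjusted p = 0.00488), with -0.077 and no call on its other probe set. Of the injury list 0 were called upward at 8 h and 1 downward, and Atf3 was not called (0.72, limma adjusted p = 0.0747). A limma fit over all 72 arrays without the letter terms called 0 genes for 8 h, with 668 at an unadjusted p under 0.05, and 400 for the later hours. The 8 h count was 33 without proximal letter b of 8 h and 139 without sham letter b of 8 h.

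**Figure D5:**
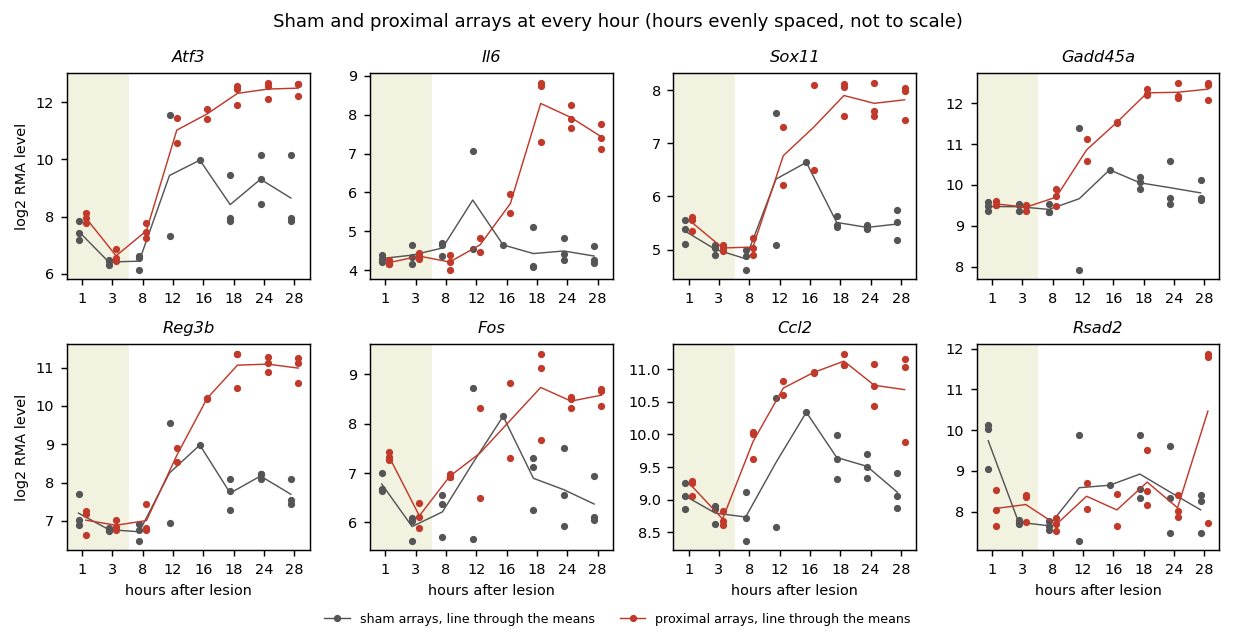
Log2 RMA levels (vertical axis) of 8 genes in sham and proximal arrays at each of 8 hours (horizontal axis, evenly spaced), with 1 point for each array and lines through the means, and shading over 1 and 3 h. For Atf3, Il6, Sox11, Gadd45a and Reg3b all proximal arrays lie above all sham arrays at 18, 24 and 28 h. At 12 h 1 sham array lies above both proximal arrays for each of these genes, as Atf3 with 11.55 against 10.58 and 11.46. Rsad2 is high in sham arrays at 1 h (9.05 to 10.13) and in 2 proximal arrays at 28 h.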

How the data were processed

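RNA of L4 and L5 dorsal root ganglia was measured on Affymetrix rat arrays. The deposited table holds log2 intensities of 31099 probe sets, normalized by the authors with RMA per the submitters' processing notes (a version was not given in these sources). Array data carry no read depth, and 3 arrays in a group limit the precision. Of the probe sets 20826 had 1 gene symbol, 436 had several, 9780 had none and 57 were controls. For each gene 1 probe set was kept, that with the highest mean level across the 72 arrays, and those below the 25th percentile of mean level (5.46) were left out, which left 12276 genes.

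Arrays were grouped by title and fitted in limma 3.58.1 (R 4.3.3) with a trended variance prior and Benjamini-Hochberg adjustment at 0.05. The 12 arrays shared 1 fit with 6 residual degrees of freedom, with title letters as a replicate block at 1 h. There same-letter arrays deviated together (r = 0.70, 0.51 and 0.48), while at 3 h they did not (-0.20, -0.29 and -0.17), where no block was used. The 8 h comparison used 18 arrays, and that with 18, 24 and 28 h used 30. The fit over all 72 arrays had no replicate block. The code was tested on simulated data.

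Genes named are, at each hour and for their mean, the largest 10 in each direction among called genes whose groups separate (where fewer than 10 were called, all of them and then those of smallest p), the largest 5 for comparisons between hours, in each list the members of smallest p, and a fixed set of injury genes. Acta1, Klf10, Nefh and Psmb8 fall outside this rule and were chosen after their values were seen. A gene called at 3 h is counted but not reported here. The members and lists were chosen with earlier results of these data known. The interferon list and the promoter element were added after the values were seen. Alternatives were the block, the arrays fitted, the filter, the normalization, array weights, the variance prior, the probe sets and each array left out.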

Additional observations from a re-analysis of the deposited data

Results flagged for a closer look

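The results here were picked out because the difference between proximal and sham arrays itself differed between hours in limma (adjusted p under 0.05). Between 1 h and 3 h the difference changed by 2.09 for Rsad2, 1.29 for Ifit2, 1.25 for Cxcl10, 1.17 for Anp32a and 1.08 for Ifgga2l1, and by -1.30 for RT1-T24-4, -1.12 for Slco5a1 and -1.03 for Dnajb6. Rsad2, Ifit2 and RT1-T24-4 passed this test with each of the 12 arrays left out in turn, Dnajb6 with 6, Ifgga2l1 with 5, Anp32a and Slco5a1 with 4 each and Cxcl10 with 2.

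From the first hours to 8 h it changed by 1.13 for Ccl2, 1.03 for Fzd2, 1.00 for Sbno2, 0.98 for Agt and 0.98 for Cd163. It changed by -4.22 for Myl11, -3.90 for Myl1, -3.51 for Tnnc2, -2.01 for Fabp7 and -1.54 for Aif1. From the first hours to 18, 24 and 28 h it changed by 3.28 for Atf3 and 3.22 for Reg3b. Fitted values of 3.52 for Il6, 2.91 for Tnfaip6 and 2.89 for Tslp start from early levels under or near the filter level and are not sizes of change. These genes passed the filter through other arrays where they are high, so their passing the test is no support. It changed by -1.46 for Camk2a, -1.35 for Racgap1, -1.20 for Adra2c, -1.05 for Inhbb and -0.99 for Htr1d. These comparisons share the early arrays, so they are not independent of each other.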

How the results depend on the processing

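Counts of called genes in limma depended on the processing, and the cause was not tested. The order throughout is 1 h, 3 h, their mean, 3 h minus 1 h, 8 h minus early and later hours minus early, with main counts of 15, 19, 4, 8, 74 and 582. Without the replicate block the first 5 counts were 1, 1, 1, 0 and 20. With the replicate block at every hour all 6 were 5, 6, 1, 3, 37 and 1854. With all 72 arrays in 1 fit, also without the block, the first 5 were 0 each. Array weights gave 24, 208, 119, 24, 138 and 3227. Another quantile normalization gave 7 at 1 h, 43 at 3 h, 7 for the mean and 1146 for the later hours. The 6 arrays of an hour alone gave 2 at 1 h and 67 at 3 h. At 3 h no filter gave 9, a filter at the 50th percentile gave 12 and no variance trend gave 11, and for the mean no variance trend gave 2. With the technical set as a block the later hours gave 1861. At 1 and 3 h all arrays of an hour lay in 1 set, so this could not be fitted there. Leaving out 1 array gave 4 to 17, 2 to 76, 1 to 39, 3 to 16, 33 to 139 and 333 to 1063. Leaving out both letter a arrays of 1 h, an alternative chosen after seeing the data, gave 77 at 3 h, 37 for the mean and 16 for 3 h minus 1 h. The other counts under these settings were within 1.5 times the main count. Another probe set of the gene turned the sign for Aif1 (-0.026) and Id2 (0.49) at 3 h and for Id2 in the mean of both hours (0.17), and ended the call for Aif1 at 8 h (-0.077) and, on both other probe sets, for Camk2a at later hours (-0.062 and -0.01).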
